A study of Mus musculus with 15 samples.

Results

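The 37 mouse genes described here mostly copy the genome before a cell divides or supply the nucleotides for it. They were chosen by name as DNA replication and nucleotide supply genes, with earlier results of these data known. Counts and medians over them therefore describe the list and do not test it. Each gene was looked up on the arrays through the RefSeq transcript that its probe carries. Of the 37 genes, 36 were found, on 40 probes, and Gins1 was not matched. All 36 passed the filter on dim probes, among 21661 gene or probe names tested on the whole array, and 31 of them were well above background on all 15 arrays.

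Gene expression had been measured with one-colour Agilent arrays, 1 array per sample, in 12 medulloblastomas (tumours of the cerebellum) and 3 normal cerebella. The R-type tumours were MB10 to MB12, from mice given 1.5 Gy of X-rays, and MB7 to MB9, from mice given 0.2 Gy. The S-type tumours were MB4 to MB6, from mice given 0.2 Gy, and MB1 to MB3, from mice that were not irradiated (0 Gy), so that each group had n = 3. The 3 normal cerebella, called NC1 to NC3 here, came from unirradiated mice, and neither their genotype nor their strain is given. All tumours arose in Ptch1+/- mice on a C3B6F1 background, irradiated where a dose is given on postnatal day 1 and followed until moribund. Ptch1 is the receptor that restrains sonic hedgehog signalling, and loss of 1 copy in every cell of the mouse is the model. The labels do not say what R and S stand for. The labels give ages without a unit: the mice with R-type tumours were 87 to 127, those with S-type tumours 128 to 173, and those with normal cerebella 103 to 113. Type, age and dose therefore cannot be told apart in a comparison of the types. MB6 was the only male. Each sample was a separate animal by its label, so that the spread between arrays includes that between mice.

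As background, replication starts when the origin recognition complex, with Cdc6 and Cdt1, loads the Mcm2 to Mcm7 ring on DNA in G1. Cdc45, the GINS complex and Mcm10 then turn that ring into a working helicase. Primase and DNA polymerase alpha lay down primers, the clamp Pcna, set on DNA by replication factor C, holds the polymerases in place, and Fen1 and Lig1 join the fragments of the lagging strand. Ribonucleotide reductase, thymidylate synthase and thymidine kinase supply deoxynucleotides. Many of these genes are transcribed at the entry to S phase under E2F factors. In the mouse, cerebellar granule neuron precursors divide in response to sonic hedgehog in the first weeks of life, and the adult cerebellum holds few dividing cells.

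The promoters are shown because E2F sites are the textbook feature of such genes. Whether E2F factors had a part in the changes described below was not tested. RefSeq promoter windows (GRCm38.p6, 250 bases before to 50 bases after the start) were found for 31 of the 37 genes, as 35 windows, and none was found for Gins1, Gins2, Gins4, Mcm4, Pole and Prim2. The E2F-like letters searched were TTTCCCGC, TTTCGCGC, TTTGCCGC and TTTGGCGC on both strands, with overlapping matches counted. They stood in 13 of the 35 windows (37.1%), against 2.26% of all 32851 windows of that length and 3.55% of the 13742 windows of genes tested on the arrays. Of the other motifs, CCAAT stood in 57.1% of the windows of these genes, against 37.5% of the windows of genes tested on the arrays and 37.4% of all windows. The GC box GGGCGG stood in 68.6%, against 59.2% of the windows of tested genes and 35.7% of all windows. TTTGAA stood in 11.4%, against 12.3% of the windows of tested genes and 17.9% of all windows. An E2F-like match can overlap a GC box. Below are the 200 bases before the start for 5 genes whose window holds the motif, with each match in capitals, and for Tyms and Ung, whose windows hold none of the 4 strings. Mcm6, with 3 matches, of which a pair overlap on opposite strands, lies at chr1:128359706-128359905 on the minus strand. Mcm5, with an overlapping pair, lies at chr8:75109309-75109508 on the plus strand, Orc1 at chr4:108579254-108579453 on the plus strand and Cdc6 at chr11:98907951-98908150 on the plus strand. Dtl lies at chr1:191575545-191575744 on the minus strand, Tyms at chr5:30073626-30073825 on the minus strand and Ung at chr5:114130235-114130434 on the plus strand. Each sequence is written 5′ to 3′ on its gene's strand and ends 1 base before the start.
Mcm6: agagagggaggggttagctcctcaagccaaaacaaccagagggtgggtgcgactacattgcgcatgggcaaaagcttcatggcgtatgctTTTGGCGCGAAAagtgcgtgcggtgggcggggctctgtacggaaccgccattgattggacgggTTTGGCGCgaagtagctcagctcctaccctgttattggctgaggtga
Mcm5: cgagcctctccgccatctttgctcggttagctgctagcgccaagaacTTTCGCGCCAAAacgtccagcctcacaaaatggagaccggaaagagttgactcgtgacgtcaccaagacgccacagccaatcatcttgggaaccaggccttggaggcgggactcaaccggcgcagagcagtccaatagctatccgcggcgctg
Orc1: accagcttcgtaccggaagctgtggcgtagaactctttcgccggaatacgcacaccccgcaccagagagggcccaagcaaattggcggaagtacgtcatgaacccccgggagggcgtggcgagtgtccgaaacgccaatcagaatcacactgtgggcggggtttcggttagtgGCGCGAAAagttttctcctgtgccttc
Cdc6: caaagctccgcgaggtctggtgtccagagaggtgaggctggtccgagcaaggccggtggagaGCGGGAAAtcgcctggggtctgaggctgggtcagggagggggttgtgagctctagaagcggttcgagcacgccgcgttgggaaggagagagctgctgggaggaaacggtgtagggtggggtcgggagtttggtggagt
Dtl: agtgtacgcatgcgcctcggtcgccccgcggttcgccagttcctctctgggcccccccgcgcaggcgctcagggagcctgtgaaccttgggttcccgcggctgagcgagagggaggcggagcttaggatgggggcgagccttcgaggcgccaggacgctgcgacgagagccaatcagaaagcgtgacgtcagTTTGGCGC
Tyms: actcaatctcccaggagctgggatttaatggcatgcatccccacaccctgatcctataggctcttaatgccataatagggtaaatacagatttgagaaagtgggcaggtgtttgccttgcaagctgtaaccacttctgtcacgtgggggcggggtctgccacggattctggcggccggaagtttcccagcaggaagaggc
Ung: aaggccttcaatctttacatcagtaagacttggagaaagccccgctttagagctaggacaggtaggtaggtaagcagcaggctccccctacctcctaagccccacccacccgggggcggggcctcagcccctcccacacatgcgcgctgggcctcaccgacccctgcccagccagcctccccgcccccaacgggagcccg

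The arrays were alike in coverage. Between 24331 and 27365 of 41174 probes were well above background, and the 75th percentile of the processed signal, by which each array was scaled, lay between 1218.4 and 1664.4. A value of 0 on the log2 scale used here is that percentile. Markers of the labelled tissues were where the labels put them. All 5 mature granule neuron markers, all 5 Purkinje cell markers and all 4 GABAergic interneuron markers were lower in the tumours than in normal cerebellum, and 4 of 6 granule neuron precursor markers were higher. All 6 division markers (Mki67, Top2a, Ccnb1, Aurkb, Bub1, Cdk1) were higher, with a median log2 change of 8.84, and their summed level on the log2 scale was 5.92 to 6.39 in the tumours against -3.87 to -2.53 in normal cerebellum. The 5 microglia and macrophage markers were also higher, with a median log2 change of 3.08.

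Every one of the 36 genes measured was higher in the tumours than in normal cerebellum. Among the 31 genes well above background on all 15 arrays the log2 change ran between 1.38 for Gins4 and 7.56 for Chaf1b. The median of the fitted changes over all 36 was 3.92, against a median of 0.12 over all 21661 names tested. In all 36 the lowest tumour lay above the highest normal cerebellum, which held for 36.0% of all names. All 36 passed the test (limma across all names, Benjamini-Hochberg adjusted p under 0.05, largest 1.43e-08 for Gins4). The test was passed often on these arrays: 43.0% of all names were called higher and 35.8% lower. Of the 36 genes, 25 were called with a log2 change above 3, against 4.83% of all names. Orc1, Tk1 and Dtl were not well above background in any normal cerebellum, so that they passed the filter on dim probes through the tumours and their changes are bounds, and with these bounds in place of the fitted values the median stayed 3.92. In bulk tissue, fewer cells of a type and less RNA per cell cannot be told apart, and the division markers rose beside these genes. What share of the change the mix of cells accounts for was not tested.

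**Figure D1:**
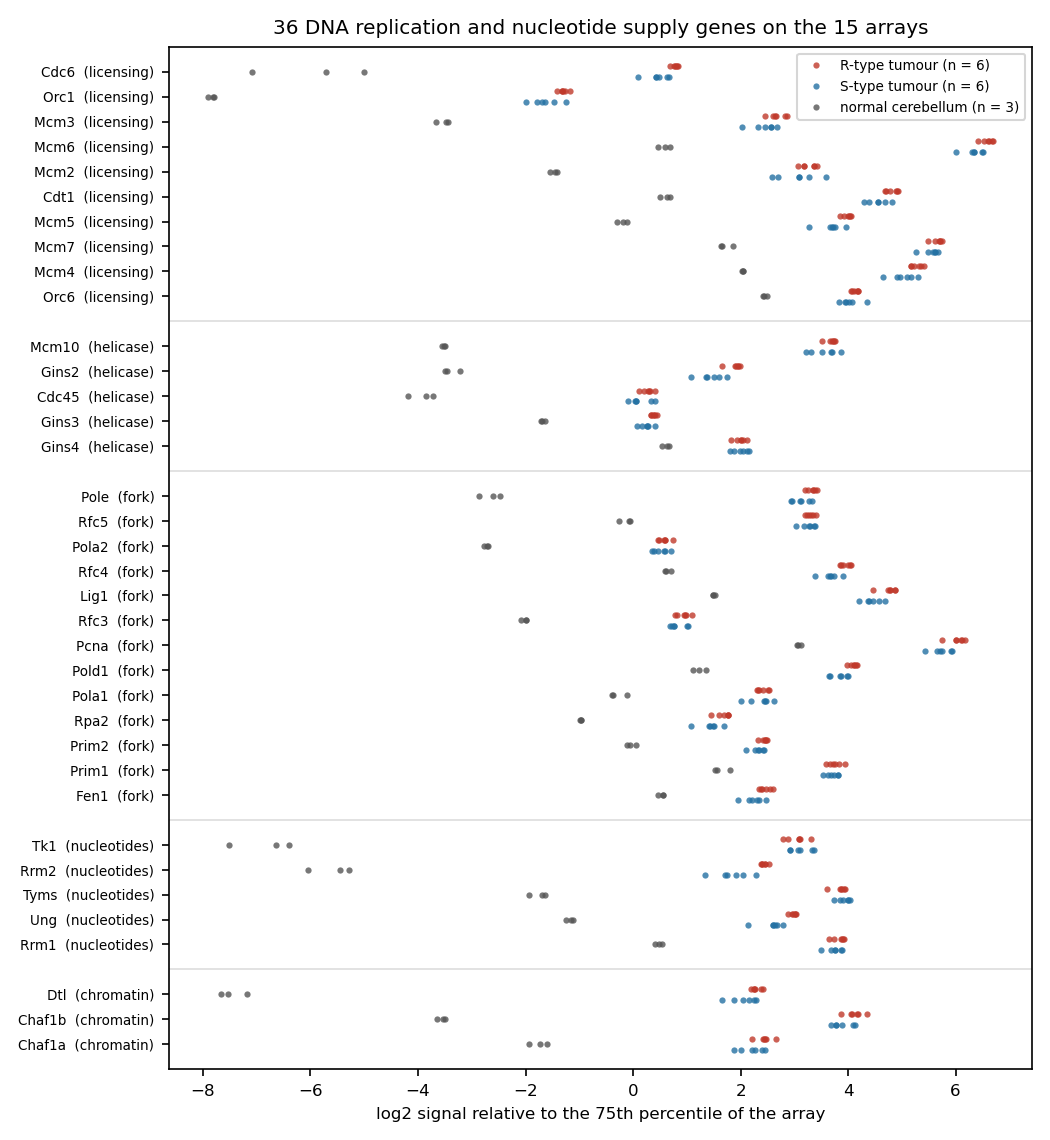
Log2 signal minus that of the array's 75th percentile (horizontal axis) for each of the 36 genes, grouped by role and ordered within a role by their change, with 1 point per array for R-type tumours (n = 6), S-type tumours (n = 6) and normal cerebella (n = 3). For every gene the 12 tumour points lie right of the 3 normal points, while the points of the tumour types mostly overlap.

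Licensing genes rose by a median log2 change of 4.35, or 4.08 with Orc1 at its bound, and all 10 passed the test. Cdc6, the ATPase that brings the helicase ring to the origin complex, had a lowest, median and highest level of 0.10, 0.68 and 0.84 in the tumours, against -5.71, -7.09 and -5.01 in the normal cerebella. Its fitted log2 change was 6.56 ± 0.299 (SE), read partly against background, since 1 of its 3 normal values was well above background on the probe used. Its normal values spread more widely than those of any other gene here (SD 1.06, n = 3). Orc1, the largest origin subunit and the one that comes and goes with the cell cycle, lay between -1.99 and -1.18 in the tumours and was not well above background in any normal cerebellum, where it measured -7.90, -7.81 and -7.79. It was at least 17.0-fold higher in the tumours. Its adjusted p (limma, 4.94e-13) belongs to the fitted change, read against background, and not to this bound. Orc6, a small origin subunit, had the smallest change of the role. It measured 3.83, 4.08 and 4.35 at its lowest, median and highest in the tumours, against 2.49, 2.41 and 2.44 in the normal cerebella, a log2 change of 1.63 ± 0.0868 and thus 3.10-fold. The 6 subunits of the Mcm2 to Mcm7 ring, which work together as 1 complex, rose by unequal amounts, between 3.11 for Mcm4 and 6.09 for Mcm3 on the log2 scale. Mcm6 rose 58.9-fold and Mcm4 8.62-fold. The ring's loader Cdt1 rose by 4.07.

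Of the helicase activation genes all 5 measured members passed the test, with a median log2 change of 4.12. Mcm10, which binds the helicase and helps it start, showed the largest change. Its lowest, median and highest levels in the tumours were 3.22, 3.69 and 3.87, against -3.49, -3.52 and -3.55 in the normal cerebella, so that it was 141-fold higher. Gins4 showed the smallest change of all 36 genes, with 1.80, 2.00 and 2.15 in the tumours against 0.53, 0.63 and 0.67 in the normal cerebella, or 2.60-fold. The 3 measured subunits of the GINS complex thus differed among themselves, with log2 changes of 5.05 for Gins2, 1.98 for Gins3 and 1.38 for Gins4. Cdc45, their partner in the helicase, rose by 4.12.

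The 13 polymerase, primase, clamp, loader and flap processing genes all passed the test, with a median log2 change of 2.80, the lowest median of the 5 roles. Pole, the catalytic subunit of the leading strand polymerase, changed most. It measured 2.94, 3.27 and 3.42 at its lowest, median and highest in the tumours, against -2.48, -2.61 and -2.86 in the normal cerebella, a 58.7-fold difference. Fen1, the nuclease that trims the flap of each lagging strand fragment, changed least, with 1.96, 2.37 and 2.61 in the tumours against 0.47, 0.55 and 0.55 in the normal cerebella, or 3.54-fold. The other catalytic subunits rose by less than Pole on the log2 scale: Pold1 of the lagging strand polymerase by 2.73 and Pola1 of the priming polymerase by 2.68. Pcna, spotted 10 times on each array, had an SD between its spots of 0.017 to 0.040 on the log2 scale and rose by 2.80 ± 0.104. Both probes of Pold1 gave nearly the same change, 2.73 and 2.68. Rpa2, also counted in this role, rose by 2.52.

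All 5 nucleotide supply genes passed the test, with a median log2 change of 5.64. Tk1, which phosphorylates thymidine in dividing cells, had a lowest, median and highest level of 2.78, 3.09 and 3.37 in the tumours and was not well above background in any normal cerebellum, where it measured -7.51, -6.64 and -6.40. It was at least 399-fold higher in the tumours. Rrm1, the large subunit of ribonucleotide reductase, changed least in this role, with 3.49, 3.81 and 3.93 in the tumours against 0.48, 0.41 and 0.54 in the normal cerebella, or 9.88-fold. Rrm2, the small subunit made in S phase, had a fitted log2 change of 7.73 and was well above background in 1 of 3 normal cerebella. Tyms, which makes thymidylate, rose by 5.64 on one probe and by 5.60 on its other probe. Ung, counted in this role although it removes uracil from DNA and does not supply nucleotides, rose by 3.95.

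The 3 genes of chromatin assembly and replication-coupled protein turnover all rose. Dtl, the receptor through which a ubiquitin ligase destroys Cdt1 and other proteins at Pcna, lay between 1.66 and 2.41 in the tumours with a median of 2.25, and was not well above background in the normal cerebella, where it measured -7.67, -7.54 and -7.18. It was at least 212-fold higher on the brighter probe. Its other probe was also not well above background in any normal cerebellum, so that neither probe gives more than a bound and their changes cannot be compared. Chaf1b and Chaf1a are subunits of the factor that places histones behind the fork. Chaf1b rose by 7.56 and Chaf1a by 4.08. Chaf1a measured 1.88, 2.40 and 2.66 at its lowest, median and highest in the tumours, against -1.73, -1.61 and -1.94 in the normal cerebella.

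Each tumour group was also set against the same 3 normal cerebella. All 36 genes passed the test in each of these comparisons, with a median log2 change of 4.07 in R-type tumours after 1.5 Gy, 4.01 in R-type tumours after 0.2 Gy, 3.86 in S-type tumours after 0.2 Gy and 3.70 in S-type tumours after 0 Gy. In the same comparisons 40.7%, 40.2%, 40.4% and 40.7% of all names were called higher. These comparisons share their controls, and their medians are given side by side only.

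A list of 54 other genes of replication and nucleotide supply, also chosen with earlier results known, was examined beside them, and all 54 were tested. Of these 49 were called higher and 2 lower, against 43.0% and 35.8% of all names. The median log2 change was 2.12, against 0.12 over all names. The 4 with the largest fitted changes were Uhrf1, Ticrr, Clspn and Dbf4. Uhrf1, which recognises hemimethylated DNA behind the fork, had a fitted log2 change of 9.25 and was well above background in 1 of 3 normal cerebella. Ticrr, which brings Cdc45 to origins, was at least 28.5-fold higher and the checkpoint mediator Clspn at least 13.3-fold. Both were not well above background in any normal cerebellum, so that their rank is not known, and Chtf18 (5.18) and Pole2 (5.03), measured in all normal cerebella and named after their values were seen, lay above the bound of Clspn. Dbf4, the activator of the Cdc7 kinase, rose by 5.78. The smallest were those of Rrm2b, the ribonucleotide reductase subunit used outside S phase, which fell by 0.47 (adjusted p 0.00104), of the accessory subunit Pold4, which fell by 0.23 (adjusted p 0.0111), of the mitochondrial kinase Dguok, at -0.00 (adjusted p 0.972), and of the origin subunit Orc4, at 0.09 (adjusted p 0.257). Rrm2 and Rrm2b, which pair with the same large subunit, thus changed in opposite directions. Promoter windows were found for 48 of these 54 genes, and the E2F-like letters stood in 22.4% of their 58 windows.

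Between the tumour types the differences were small. Of the 36 genes 9 were higher in R-type than in S-type tumours and none was lower (limma, adjusted p under 0.05), against 10.7% of all names called higher and 10.2% called lower. Without adjustment, p was under 0.05 and the change above 0 for 18 of the 36 genes, against 18.7% of all names, and below 0 for 0 of the 36. The median log2 change of the 36 genes was 0.22, against 0.02 over all names, and 33 of the 36 lay above 0, against 52.4% of all names. The count rests on the scaling between arrays and on single tumours. Without scaling 0 genes were called higher and Tyms and Gins4 were called lower. Of all names 2.66% were called higher in that setting, and 5805 of 21661 lower. With the slide of 4 arrays as a block 3 were called higher, when 8.69% of all names were. The count ran between 2 (without MB6, with 8.39% of all names) and 15 (without MB3, with 12.3%) when arrays were left out in turn. It was 3 without MB5 (8.37% of all names), MB8 (8.92%) or MB9 (6.87%) and 4 without MB11 (7.5%). It was 5 without MB10 (9.15%) and 6 without MB2 (9.57%). Without scaling the median of all names was -0.20 and that of the 36 genes 0.01, which is 0.21 above it.

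**Figure D2:**
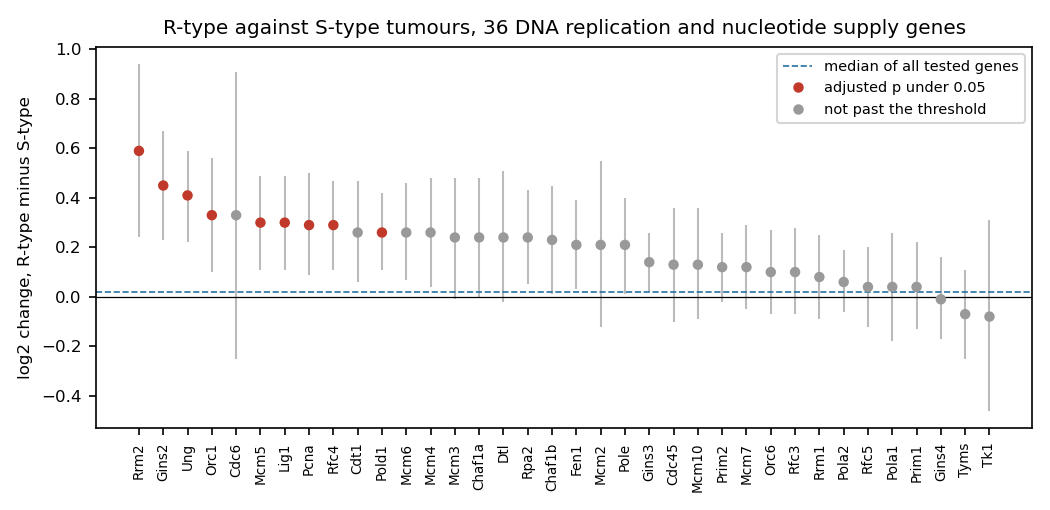
Log2 change between R-type and S-type tumours (vertical axis, R-type minus S-type, n = 6 each) for each of the 36 genes in order of size, with 95% confidence intervals as bars and the median of all names tested as a dashed line. The 9 red points passed the test, and 33 of the 36 points lie above 0.

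Ung gave the smallest adjusted p of the 36 genes. Its lowest, median and highest levels were 2.89, 3.00 and 3.03 in R-type tumours, against 2.14, 2.62 and 2.78 in S-type tumours, with no overlap. The log2 change was 0.41 ± 0.0854 (SE), or 1.33-fold (adjusted p 0.00694). Gins2 measured 1.65, 1.93 and 1.99 in R-type tumours, against 1.08, 1.44 and 1.74 in S-type tumours. Its types overlapped through the lowest R-type tumour, MB7, and its log2 change was 0.45 ± 0.102 (adjusted p 0.00999). Both genes stayed past the threshold in 23 of 24 alternative settings and lost it only without scaling between arrays.

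Rrm2 showed the largest change of all 36 genes. It measured 2.37, 2.43 and 2.52 in R-type tumours, against 1.34, 1.83 and 2.29 in S-type tumours, so that the types did not overlap, with an SD of 0.06 among R-type tumours and 0.32 among S-type tumours (n = 6 each). The log2 change was 0.59 ± 0.160, or 1.51-fold (adjusted p 0.0231), and the call was lost without MB6 (adjusted p 0.0515). Groups without overlap were found for 3 of the 36 genes with R-type higher, Rrm2, Ung and Cdc6, against 4.68% of all names. Cdc6 measured 0.69, 0.79 and 0.84 in R-type tumours, against 0.10, 0.45 and 0.66 in S-type tumours, and did not pass the test (log2 change 0.33 ± 0.267, adjusted p 0.404). The common fit includes the wide spread of Cdc6 in the normal cerebella.

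The other 6 genes that passed rose by 0.26 to 0.33 on the log2 scale, and in each the types overlapped. Among licensing genes, Mcm5 measured 3.84, 4.01 and 4.06 in R-type tumours, against 3.27, 3.71 and 3.96 in S-type tumours (log2 change 0.30 ± 0.0876, adjusted p 0.0307). Orc1 measured -1.42, -1.31 and -1.18 in R-type tumours, against -1.99, -1.67 and -1.24 in S-type tumours (0.33 ± 0.105, adjusted p 0.0429). Mcm6 missed the threshold narrowly (0.26 ± 0.0875, adjusted p 0.0514), and the other 4 subunits of the ring had log2 differences of 0.12 to 0.26. Among the polymerase, primase, clamp, loader and flap processing genes, those that passed were Pold1, Pcna, Rfc4 and Lig1. The loader subunits Rfc3 (0.1) and Rfc5 (0.04) did not pass, nor did Pole (0.21) or Fen1 (0.21). Pold1 measured 3.97, 4.10 and 4.17 in R-type tumours, against 3.64, 3.85 and 3.99 in S-type tumours (0.26 ± 0.0708, adjusted p 0.0237). Its second probe gave a log2 change of 0.24. Rfc4 measured 3.85, 3.96 and 4.06 in R-type tumours, against 3.39, 3.67 and 3.90 in S-type tumours (0.29 ± 0.0809, adjusted p 0.0263). Lig1 measured 4.47, 4.77 and 4.87 in R-type tumours, against 4.20, 4.43 and 4.68 in S-type tumours (0.30 ± 0.0858, adjusted p 0.0285). Pcna measured 5.75, 6.05 and 6.17 in R-type tumours, against 5.43, 5.72 and 5.93 in S-type tumours (0.29 ± 0.0934, adjusted p 0.0449). These 6 calls were lost without scaling, without the filter on dim probes and with the slide as a block. In the last 2 of these settings Ung, Gins2 and Rrm2 were still called. The calls of Orc1 and Pcna were lost in 13 and 12 of the 15 settings that left out 1 array. Those of Mcm5 and Lig1 stayed in only 9 of these 15 settings, and those of Rfc4 and Pold1 in 10. The call of Pcna was also lost with quantile normalization.

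The other 27 genes did not pass the test. In nucleotide supply, Tyms and Tk1 had differences below 0. Tyms measured 3.60, 3.88 and 3.95 in R-type tumours, against 3.73, 3.95 and 4.04 in S-type tumours (log2 change -0.07, 95% interval -0.25 to 0.11). Tk1 measured 2.78, 3.09 and 3.31 in R-type tumours, against 2.91, 3.09 and 3.37 in S-type tumours (-0.08, interval -0.46 to 0.31). Gins4 differed by -0.01 (interval -0.17 to 0.16), beside 0.45 for Gins2 of the same complex. The 4 subunits of the priming enzymes had differences of 0.04 for Pola1, 0.06 for Pola2, 0.04 for Prim1 and 0.12 for Prim2. The intervals of Tyms and Gins4 exclude a change as large as that of Rrm2, but a difference between genes was not tested. The 3 chromatin and turnover genes had differences of 0.23 to 0.24, and none passed. Of the 9 genes called between the types 8 have a promoter window, and 4 of these 8 genes hold the E2F-like letters there, against 9 of the 23 genes with a window that were not called.

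**Figure D3:**
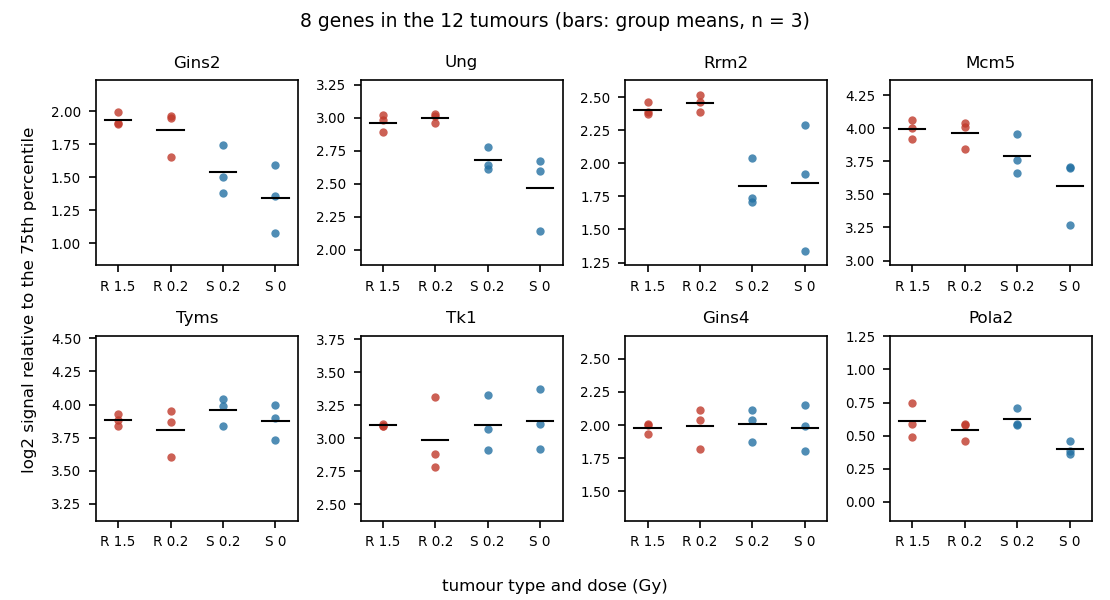
Log2 signal minus that of the array's 75th percentile (vertical axis, the same span in each panel but a different position) for 8 genes in the 12 tumours, by type and dose in Gy, with 1 point per tumour and a bar at the mean of each group (n = 3). Gins2, Ung, Rrm2 and Mcm5 passed the test between the types with R-type higher, but only Ung and Rrm2 of these do not overlap. The types also overlap for Tyms, Tk1, Gins4 and Pola2. For Pola2 the 3 S-type tumours after 0.2 Gy lie above the 3 after 0 Gy. Pola2 did not pass the test between these doses (limma, adjusted p 0.769), and the share of all names so separated is not given.

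The 6 division markers did not pass the test between the types (median log2 change 0.05, values -0.12 to 0.18). Of the other marker lists, single members passed in both directions. Pax6 was higher and Barhl1 lower in R-type tumours among the 6 granule neuron precursor markers (median log2 change -0.15), and Cbln1 higher and Snap25 lower among the 5 mature granule neuron markers (median -1.12). Gja1 was higher among the 5 astrocyte and Bergmann glia markers (median 0.38), Mal higher among the 5 oligodendrocyte markers (median -0.58), and Cx3cr1 lower among the 5 microglia and macrophage markers (median -0.27). The 2 choroid plexus markers tested had a median of -1.42, and neither passed. The summed level of the mature granule neuron markers, of which Cbln1 is by far the brightest, was 4.86 to 5.15 in R-type tumours and 4.05 to 5.15 in S-type tumours on the log2 scale, and that of the microglia and macrophage markers 3.91 to 4.66 in R-type tumours and 4.21 to 4.82 in S-type tumours. Their part in the difference between the types was not tested. Among the 54 other replication genes, 12 were called higher and 1 lower, against 10.7% and 10.2% of all names. Their median log2 change was 0.13, against 0.02 over all names. The smallest adjusted p were those of Impdh2, which limits guanine nucleotide synthesis (0.39, adjusted p 0.00203), the large clamp loader subunit Rfc1 (0.59, adjusted p 0.00212), the folate enzyme Mthfd1 (0.32, adjusted p 0.00558), the origin subunit Orc2 (0.29, adjusted p 0.00605), Ticrr (0.31, adjusted p 0.00715) and the fork protein Wdhd1 (0.26, adjusted p 0.00797). The gene called lower was Rrm2b (-0.39, adjusted p 0.0121), named after its value was seen.

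At the dose both types share, 0.2 Gy, none of the 36 genes passed the test between R-type and S-type tumours (limma), against 1.94% of all names called higher and 2.92% lower. With 3 tumours a group, an unadjusted p under 0.05 with R-type higher was reached by 3 of the 36 genes, against 10.8% of all names. The median log2 change was 0.16, against 0.01 over all names, and 31 of the 36 genes lay above 0, against 52.2%. Rrm2 had the largest difference. It measured 2.39, 2.52 and 2.46 in R-type tumours, against 2.04, 1.74 and 1.71 in S-type tumours (0.62 ± 0.226, adjusted p 0.134). Ung measured 2.96, 3.01 and 3.03 in R-type tumours, against 2.78, 2.64 and 2.61 in S-type tumours (0.32 ± 0.121, adjusted p 0.144). Rfc4, the third of these genes, measured 3.85, 4.0 and 4.04 in R-type tumours, against 3.73, 3.68 and 3.62 in S-type tumours (0.29 ± 0.114, adjusted p 0.167). Between the types at all doses these genes had given 0.59, 0.41 and 0.29. That comparison includes these same tumours, so that the values are not independent. Of the 36 genes, 6 had groups that did not overlap with R-type higher, against 16.1% of all names. The lowest differences of the 36 genes were those of Tyms (-0.15) and Tk1 (-0.11). Without MB2, which is in neither group but enters the common spread, 1 gene, Ung, was called higher, against 2.93% of all names.

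None of these genes passed the test between doses within a type (limma). Within S-type tumours, 0.2 Gy against 0 Gy gave a median log2 change of 0.08 over the 36 genes, with values between -0.10 for Mcm10 and 0.23 for Mcm5 and Pola2. Only 1 name of 21661 (0.00462%) was called there, lower after 0.2 Gy. An unadjusted p under 0.05 was reached by 1 of the 36 genes, Pola2, the regulatory subunit of the priming polymerase, against 2.86% of all names with a positive change. It measured 0.71, 0.59 and 0.58 after 0.2 Gy, against 0.36, 0.46 and 0.38 after 0 Gy (log2 change 0.23 ± 0.0792, adjusted p 0.769). Within R-type tumours, 1.5 Gy against 0.2 Gy gave a median of 0.04, with values between -0.13 for Mcm2 and 0.15 for Chaf1a, and an unadjusted p under 0.05 was reached by 0 of the 36, against 3.70% of all names with a positive change. Of all names 0.0692% were called there. The 95% intervals were wide beside these changes, at -0.55 to 0.40 for Mcm2 within S-type tumours and -0.60 to 0.35 within R-type tumours.

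The levels of the genes varied between tumours, and correlations between genes are not given. Over the 12 tumours the SD of a gene had a median of 0.19 on the log2 scale, against 0.26 over all names, and ran between 0.107 for Rfc5 and 0.380 for Rrm2. Within R-type tumours the median SD was 0.10 and within S-type tumours 0.18, against 0.19 and 0.22 over all names, and 34 of the 36 genes varied more among S-type than among R-type tumours. The matching shares of all names are not given for this count or for the counts by tumour that follow. A single tumour, MB2 (S-type, 0 Gy), carried part of the larger spread among S-type tumours. It was the lowest of the 12 tumours for 32 of the 36 genes and below the gene's own mean for all 36, with a median deviation from the mean of -0.39, while its median over all names was -0.04. Its division markers deviated by -0.27. MB2 was also the highest of the 12 tumours for 4 of the 5 mature granule neuron markers, Gabra6 (0.61), Chn2 (-0.01), Slc17a7 (-2.03) and Snap25 (0.23), and for both choroid plexus markers tested, Ttr (-0.09) and Folr1 (-0.82). The next highest tumour was MB3 for the choroid plexus markers, at -2.11 for Ttr and -2.85 for Folr1. The part of such tissue in the values of MB2 was not tested. Without MB2 the median SD within S-type tumours was 0.13, and 27 of the 36 genes still varied more than among R-type tumours. MB6 (S-type, 0.2 Gy) came next, with a median deviation of -0.17 and -0.21 for the division markers. At the other end MB8 (R-type, 0.2 Gy) was highest for 10 genes, with a median deviation of 0.19, and MB11 (R-type, 1.5 Gy) was highest for 10 genes, with 0.14. Types were not fully separate by these medians, since MB7 (R-type, -0.04) lay below MB3 and MB4 (S-type, 0.07 and 0.10).

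**Figure D4:**
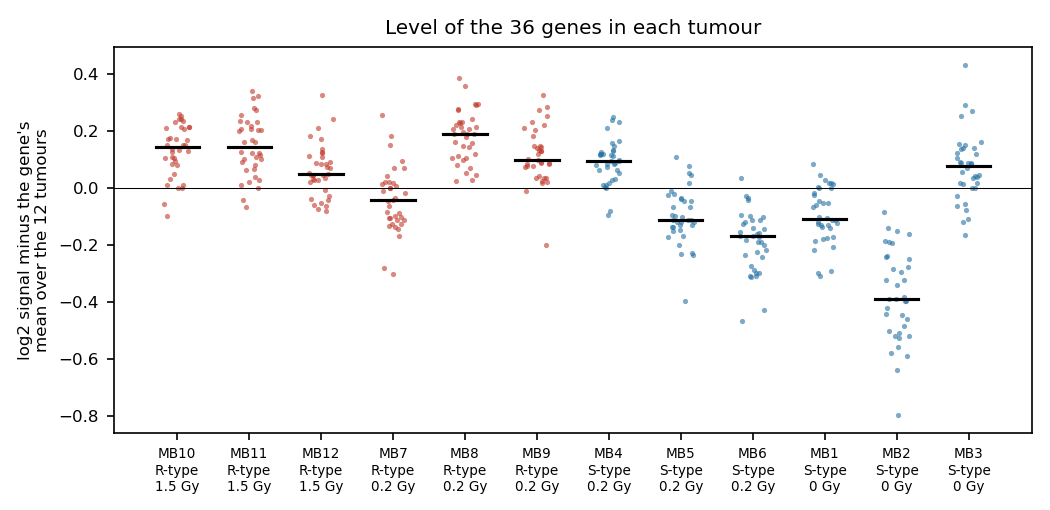
Log2 signal of each of the 36 genes minus that gene's mean over the 12 tumours (vertical axis), with 1 point per gene and a bar at the median of the genes, for each tumour by type and dose. MB2 lies lowest, with a median of -0.39 and every gene below 0, and MB8 highest, with a median of 0.19.

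The arrays lay on 4 slides, each with tumours of both types, and the difference was computed on each slide from its own tumours. The median over the 36 genes, R-type minus S-type, was 0.45 on slide 1 (MB10 against MB2 and MB6), with 35 of 36 genes above 0. It was 0.10 on slide 2 (MB8 and MB11 against MB3), with 26 above 0, and 0.20 on slide 4 (MB9 against MB1 and MB5), with 34 above 0. On slide 3 (MB7 and MB12 against MB4) it was -0.08, with 7 of 36 above 0. A difference above 0 on all 4 slides was found for 7 genes, Cdc6, Cdt1, Gins2, Rfc4, Pold1, Rrm2 and Ung. The matching shares of all names were not computed, so that the counts by slide do not set these genes apart from the rest of the array. For Rrm2 the slides gave 0.85, 0.17, 0.39 and 0.63 in the order of their numbers, and for Ung 0.64, 0.33, 0.14 and 0.41. The slide with the largest difference holds the lowest tumours, MB2 and MB6, so that slide and tumour cannot be told apart there.

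**Figure D5:**
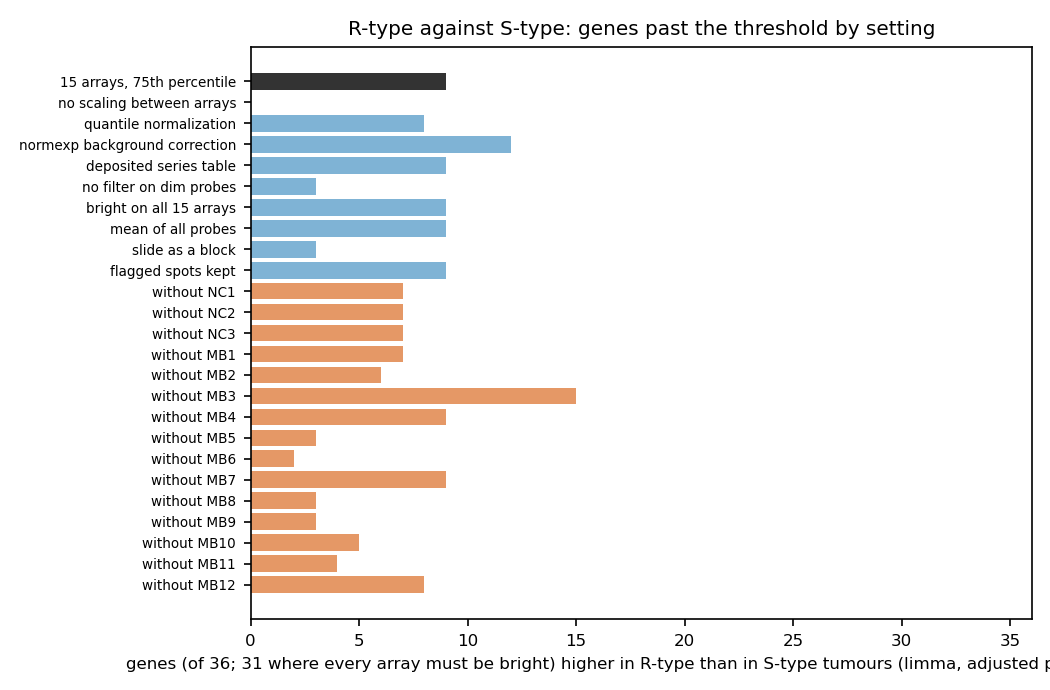
Number of the 36 genes called higher in R-type than in S-type tumours (horizontal axis) under the main setting (black), 9 alternative settings (blue) and with each array left out in turn (orange). The main count is 9, the lowest 0 without scaling between arrays and the highest 15 without MB3. Of all names 10.7%, 2.66% and 12.3% were called higher in these settings.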

How the data were processed

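RNA of 12 medulloblastomas and 3 normal cerebella had been labelled with Cy3 and hybridised to 15 Agilent arrays, 1 for each sample. Each scanner file holds linear spot intensities that, per the file headers, were background-subtracted before the authors deposited them, with no scaling between arrays. The software was Agilent Feature Extraction 9.5.1 according to the submitters' processing notes. The deposited series table holds log2 values by the authors, whose processing is not given in the sources used here. Its array differences correlated at 0.999853 or more with those of the scaled log2 signals, in the same direction, and its MB1 and MB2 columns summed to 0 at each probe within 1.0e-06. Why it is centred on these arrays and its scale before centring stay unknown, and it served as an alternative input. Its column medians were 0.0023, 0.0817 and 0.0889 for NC1 to NC3 and 0.0506, -0.0506, 0.1059, 0.0683, -0.0795, 0.0526, 0.0704, 0.1304, 0.1272, 0.0912, 0.1522 and 0.0996 for MB1 to MB12.

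From the log2 of every processed signal, its array's 75th percentile (also as log2) was taken off. Control spots and flagged spots were left out, which removed 76 probes. Of 41174 probes, 24844 were named through their RefSeq accession. The brightest probe of each of 32628 names was used, and testing was limited to the 21661 names with 3 or more arrays well above background. One limma fit (version 3.58.1, R 4.3.3) held all 5 group means (10 residual and 1.7 prior degrees of freedom), with two-sided tests adjusted by Benjamini-Hochberg over all names at 0.05. A gene not well above background in any normal cerebellum got a bound, its tumour mean over the lowest signal well above background on each normal array. The number of arrays limits the precision. The steps were tested on simulated data. Other steps used numpy 2.4.6 and pandas 2.3.3 under Python 3.11.15.

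All 37 members are named. Values in full are given for members past the threshold between types or doses and, in each role, for the largest and smallest change between tumours and normal cerebella. Of 54 other replication genes, the 4 largest and 4 smallest of these changes and the 6 smallest adjusted p between types are named. The members and lists were chosen with earlier results of these data known. The alternatives were no scaling, quantile normalization, normexp with an offset of 50, the deposited table, the filter on dim probes, the mean of a gene's probes, the slide as a block, flagged spots kept and each array left out in turn.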

Additional observations from a re-analysis of the deposited data

Results flagged for a closer look

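Each of the 36 genes was examined within the 6 R-type and the 6 S-type tumours for a value far from the other 5, by a gap test with a 5% error per group, so that chance alone marks about 1 in 20 of the 72 groups. In 4 of the 72 groups a value stood apart, which is near that share. Gins2 was at 1.65 on the log2 scale in MB7, against 1.90 to 1.99 in the other R-type tumours. Lig1 was at 4.47 in MB7, against 4.74 to 4.87 in the other R-type tumours, and Tyms at 3.60 in MB7, against 3.84 to 3.95. Ung was at 2.14 in MB2, against 2.60 to 2.78 in the other S-type tumours. MB7 and MB2 were also the tumours with the lowest median deviation of the 36 genes in their type, at -0.04 and -0.39. That median is taken over the same genes, so that it is not separate support for these values.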

How the results depend on the processing

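All 36 genes stayed higher in tumours than in normal cerebellum under each alternative run, though only 31 were tested, all of them higher, when probes had to be well above background on all 15 arrays. No member passed the test between doses within a type under any of them. Between the types, 9 genes were called higher with the settings used, and 8 with quantile normalization, 12 with normexp, 9 with the deposited table, 9 of 31 with probes bright on all 15 arrays, 9 with the mean of a gene's probes and 9 with flagged spots kept. Without scaling between arrays the count was 0, when 2.66% of all names were called higher. It was 3 without the filter on dim probes (5.02%) and 3 with the slide as a block (8.69%). With 1 array left out it ran between 2 (8.39%) and 15 (12.3%). At 0.2 Gy the count was 0, or 0 to 1 with 1 array left out (Ung without MB2, adjusted p 0.0262), and without scaling Tyms was called lower (adjusted p 0.0485). Of all names 2.93% were called higher at 0.2 Gy without MB2, and 2515 of 21661 were called lower without scaling. The cause of these moves was not tested. Leaving out the scaling moved all names together, and whether this shift lies in the arrays or in the tumours was not tested. The median between the types was then -0.20 over all names, and 33 of the 36 genes lay above it. The difference then had the other sign for Mcm2 (-0.0), Mcm7 (-0.1), Mcm10 (-0.08), Cdc45 (-0.08), Gins3 (-0.08), Orc6 (-0.12), Rfc3 (-0.11), Rfc5 (-0.18), Pola1 (-0.18), Pola2 (-0.15), Prim1 (-0.17), Prim2 (-0.1), Pole (-0.01), Fen1 (-0.0) and Rrm1 (-0.14). With quantile normalization it did for Mcm7 (-0.03), Rfc5 (-0.01) and Prim1 (-0.01), and with some array left out it did for Gins4 (range -0.05 to 0.03 over the 15 arrays left out), Rfc5 (-0.01 to 0.08) and Pola1 (-0.03 to 0.09). None of the values whose sign turned passed the threshold. At 0.2 Gy the sign turned 46 times over 26 genes, 23 of these without scaling and 14 with 1 array left out, with values of -0.23 to 0.09, none past the threshold. Among the genes whose values at 0.2 Gy are given, it turned for Tk1 (0.0 without MB4, range -0.27 to 0.0). With the shorter E2F-like motif 23 windows held a match instead of 13. No paired analysis was possible because the labels give no replicate numbers shared between groups. Groups of 3 arrays limit the dose comparisons, and signals near background limit Orc1, Tk1, Dtl, Cdc6 and Rrm2 in normal cerebellum.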
